A study of Mus musculus with 5 samples.

Results

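The genes described here are the molecular chaperones of the cytosol and the endoplasmic reticulum (ER), with their mitochondrial relatives, in mouse mesenchymal stem cells that lack or carry TSG-6. They were taken by gene symbol: the heat shock protein names (HSP70, HSP90, small HSP, HSP60 and HSP10), the DNAJ or J proteins, the CCT chaperonin, the protein disulfide isomerases, calreticulin and calnexin, the ER stress-induced factors Sdf2l1, Creld2 and Manf, the FKBP prolyl isomerases and the BAG proteins. The rule uses no measured value. The rule found 104 of the 12621 genes in the deposited table, and all 104 passed the filter on low values. Of these, 3 entries were set apart because their names match but they are not separate chaperone genes: the proteoglycan gene Hspg2, the pseudogene Hspd1-ps3, and a second entry under the name Hspa14. The other 101 comprise 54 cytosolic or nuclear members, 31 members of the ER, 9 of mitochondria, and 7 of another or unassigned place.

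The study sequenced messenger RNA of mesenchymal stem cells, adherent stromal progenitors with the capacity to form bone, fat and cartilage, as 3 libraries of TSG-6 knockout cells (KO: C1, C2 and SE) and 2 libraries of wild-type cells (WT: C1 and SE). TSG-6 is a secreted, hyaluronan-binding protein encoded by Tnfaip6. Every sample carries the same strain label, Balb/c (C.129S6). The tissue, sex and age of the donor mice, the passage, any treatment and the build of the knockout allele are not given in the sources used here, nor is the meaning of C and SE. Nothing says that libraries came from separate cultures or animals, so p-values measure only the spread between these libraries, which may be technical. Normalised counts are given on the CPM scale, listed in the order C1, C2, SE for KO and C1, SE for WT, and errors are SD with n = 3 KO and n = 2 WT libraries.

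Chaperones bind unfolded or partly folded proteins and keep them from clumping while they fold. HSP70 proteins do so in cycles of ATP hydrolysis, which J proteins start and nucleotide exchange factors of the HSP110 and BAG families end, and HSP90 and the ring-shaped CCT chaperonin take over particular clients such as kinases, steroid receptors, actin and tubulin. In the ER, the HSP70 protein BiP, the lectins calnexin and calreticulin and the disulfide isomerases fold secreted and membrane proteins, and the unfolded protein response raises their genes when unfolded proteins build up. Stromal cells secrete large amounts of collagen and other matrix, and so depend on this ER machinery.

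Libraries held between 13605555 and 26658725 reads in genes. Tnfaip6 itself was at 1.65, 2.38 and 1.36 in KO, against 6.04 and 3.21 in WT, so KO libraries were below both WT libraries without reaching the threshold (log2 fold change -1.13, SE 0.37, adjusted p = 0.0578). With the suffix C or SE of the libraries as a block, it passed (adjusted p = 0.00943). Its transcript was still detected in KO. Which part of the gene the allele lacks is not given in the sources used here. Of 7 tested markers of mesenchymal stem cells, 0 were called higher and 3 lower in KO (Cd44, Nt5e and Ly6a). Pdgfrb, at 240, 240 and 860 in KO, against 49.0 and 145 in WT, lay above WT without a call (adjusted p = 0.055). With the suffix block 2 of the 7 were higher (Pdgfrb and Eng) and 4 lower. The other lineages differed between the genotypes. All 4 adipocyte markers were higher in KO, with summed values between 582 and 1473 in KO and between 5.44 and 7.46 in WT. All 3 tested smooth muscle markers were higher, with sums between 3085 and 6586 in KO and between 48.8 and 65.1 in WT. Both tested mesothelial or epithelial markers were lower, with sums between 0.0717 and 0.189 in KO and between 284 and 348 in WT, and Krt18 was at 0 in all KO libraries. Of 3 haematopoietic markers tested, 1 was higher and 2 were lower, with sums between 38.4 and 46.5 in KO and between 198 and 237 in WT, and Cd34 was at 0 in all KO libraries. Adipoq, Plin1, Cnn1, Tagln and Lyz2 passed the filter on low values only with their KO libraries, and Msln, Krt18 and Cd34 only with WT. The direction of these markers was thus bound to their entry into the test. None of 4 endothelial markers was among the tested genes. These shifts accompany every chaperone difference given here, and their part in the results was not tested. In bulk RNA, fewer cells that express a gene and less of its RNA per cell cannot be told apart.

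Chaperone transcripts made up a smaller part of the KO libraries. The summed normalised counts of the 101 members were 2.40%, 2.17% and 1.94% of all counts in KO, against 3.73% and 3.43% in WT, so the groups did not overlap. In the limma fit across all genes with Benjamini-Hochberg adjustment (threshold 0.05), which gives every adjusted p below unless another test is named, 8 of the 104 members were higher in KO and 27 lower, or 7.69% and 26.0%. Over all 12484 tested genes the shares were 17.2% higher and 17.1% lower, 34.3% in either direction. The share of members called in either direction, 33.7%, was therefore close to the background, while the split between the directions was not even. KO lay wholly above WT for 19 of the 104 members and wholly below for 44, where 28% and 30.7% of all tested genes did so. The median log2 fold change was -0.32 over the 101 members, against -0.09 over all tested genes.

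By compartment, the cytosol had the most members and the most called lower. There, 3 of 54 members were higher and 19 lower (5.56% and 35.2%), with a median of -0.73. In the ER 4 of 31 were higher and 7 lower (12.9% and 22.6%), with a median of -0.24. In mitochondria 0 of 9 were higher and 1 lower (11.1%), with a median of 0.16. For these counts and those by family below, the shares over all tested genes were 17.2% higher and 17.1% lower. Of the 7 members outside these compartments, 1 was higher and 0 lower. Of the 35 called members, 9 kept the call whichever library was left out (Hspa2, Hspb1, Hspa4l, Dnaja1, Dnajc2, Dnajc21, Dnajc3, Creld2 and Fkbp11). Of these, Hspb1 was in the test through its KO libraries alone.

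**Figure D1:**
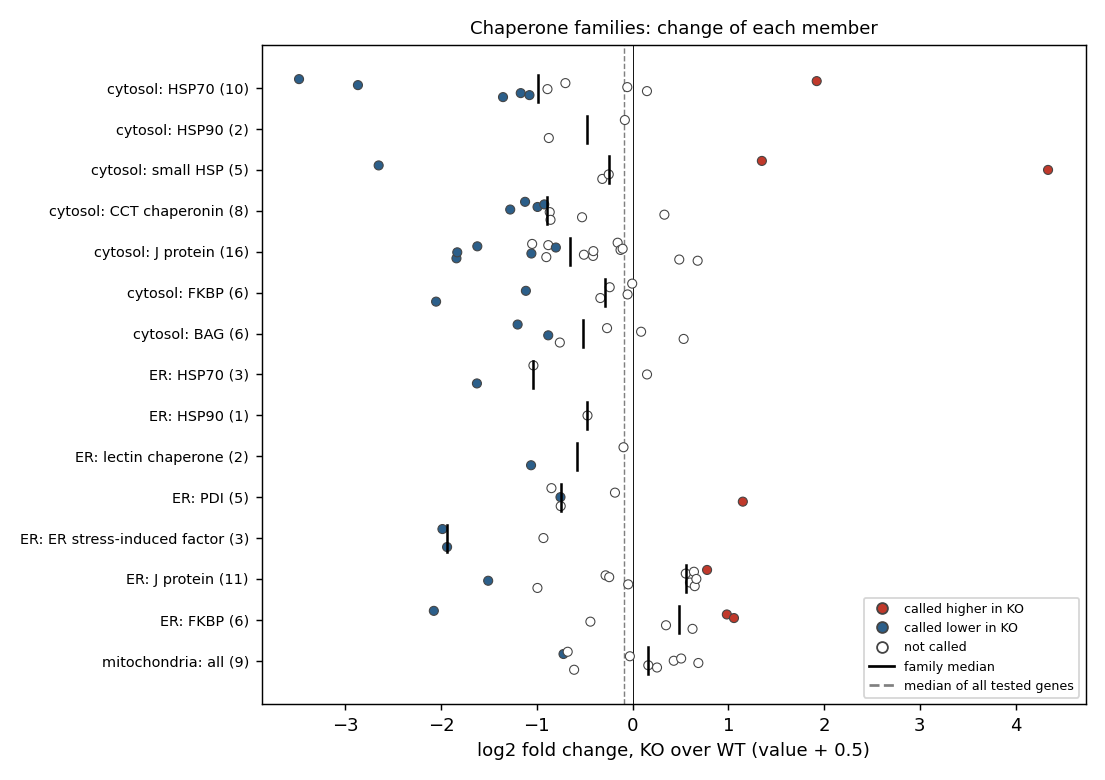
Log2 fold change of each member, KO over WT, by compartment and family, with filled points for members past the threshold, a black bar at the family median and a dashed line at the median of all tested genes (-0.09). The cytosolic HSP70 and CCT families lie mostly left of the line, with medians of -0.98 and -0.89, and members to the right are scattered among small HSPs, ER FKBPs and J proteins.

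The ER HSP70 BiP, encoded by Hspa5 (ENSMUSG00000026864, chromosome 2, 34771970 to 34777547, plus strand of GRCm38), had the highest normalised count of all members in WT. It was at 1671, 1395 and 1206 in KO, against 4792 and 3959 in WT, 3.07-fold lower in KO (log2 fold change -1.63, SE 0.31, adjusted p = 0.00942). Its share of all ER member counts was 13.5%, 12.8% and 12.2% in KO and 24.4% and 24.2% in WT, lower in every KO library. The ER HSP90, Hsp90b1 or GRP94, had 1945, 1398 and 1526 in KO, against 2451 and 2041 in WT, and KO lay below WT without a call (log2 fold change -0.48, adjusted p = 0.27). Hyou1, the large ER HSP70 that exchanges nucleotide on BiP, had 28.4, 31.6 and 68.6 in KO, against 55.7 and 119 in WT, with overlapping groups (log2 fold change -1.04, adjusted p = 0.147). Hspa13, a small ER-associated HSP70 relative named after its values were seen, was at 54.6, 50.8 and 62.5 in KO, against 47.7 and 52.8 in WT, again with overlap.

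The 3 ER stress-induced factors all lay lower in KO. Creld2, a small ER protein raised by ER stress and linked to the folding of matrix proteins, was at 94.0, 71.1 and 50.2 in KO, against 356 and 215 in WT (3.98-fold lower, log2 fold change -1.99, SE 0.35, adjusted p = 0.00652). Manf, a BiP-binding protein that is also secreted, was at 122, 84.3 and 51.5 in KO, against 428 and 226 in WT (3.81-fold lower, log2 fold change -1.94, SE 0.43, adjusted p = 0.0157). Sdf2l1, which works with BiP and the J protein ERdj3, was at 56.6, 53.6 and 35.0 in KO, against 106 and 77.5 in WT and just missed the threshold (log2 fold change -0.93, adjusted p = 0.0529). For each of the 3, the highest KO library was below the lowest WT library, as for 30.7% of all tested genes.

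Among disulfide isomerases, which form and rearrange disulfide bonds, 1 was higher and 1 lower of 5. Pdia5 was at 66.7, 67.9 and 53.0 in KO, against 30.0 and 25.6 in WT and rose 2.25-fold (log2 fold change 1.15, SE 0.24, adjusted p = 0.0124). Pdia4, known as ERp72, was at 438, 438 and 394 in KO, against 780.4 and 652 in WT and was lower (log2 fold change -0.75, SE 0.23, adjusted p = 0.0434). The abundant P4hb, which is both the classical isomerase and a subunit of collagen prolyl hydroxylase, lay at 1169, 1381 and 1133 in KO, against 2214 and 2187 in WT, below WT in every KO library without a call (adjusted p = 0.0523). Pdia3, the partner of the lectin chaperones, was at 1713, 1364 and 1079 in KO and 2874 and 1825 in WT (adjusted p = 0.148), and Pdia6 at 1113, 927 and 674 in KO and 1186 and 854 in WT with overlap. Of the lectin chaperones, which hold glycoproteins by their sugar, membrane-bound Canx was lower at 509, 506 and 625 in KO, against 1039 and 1240.1 in WT (2.08-fold lower, log2 fold change -1.06, SE 0.25, adjusted p = 0.0187), while luminal Calr was at 1193, 1115 and 807 in KO, against 1198 and 998 in WT, with overlapping groups (log2 fold change -0.09, adjusted p = 0.832). Whether the changes of Canx and Calr differ from each other was not tested.

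Of 11 J proteins of the ER, 1 was higher and 1 lower. All KO libraries lay above WT for 6 and below WT for 4, where 28% and 30.7% of all tested genes did so. Dnajc3, the BiP cochaperone p58IPK, was at 147, 111 and 138 in KO, against 406 and 344 in WT (2.84-fold lower, log2 fold change -1.51, SE 0.23, adjusted p = 0.00382). Dnajb12, an ER membrane J protein that takes part in degradation of misfolded proteins, was at 49.0, 43.8 and 49.8 in KO, against 30.5 and 24.7 in WT and higher (log2 fold change 0.78, SE 0.24, adjusted p = 0.0441). ERdj3 itself, Dnajb11, named after its values were seen, was at 234, 197 and 148 in KO, against 252 and 152 in WT with overlap. The other 8 were not called, with log2 fold changes between -0.99 (Dnajc25) and 0.67 (Dnajc18).

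The ER FKBPs, prolyl isomerases of secreted proteins, moved in both directions, 2 higher and 1 lower of 6. Fkbp9 was at 527, 555 and 555 in KO, against 256 and 267 in WT (2.09-fold higher, log2 fold change 1.06, SE 0.21, adjusted p = 0.00992). Fkbp14, whose human gene is mutated in a connective tissue disorder, was at 72.1, 67.5 and 69.1 in KO, against 34.5 and 35.3 in WT (1.99-fold higher, log2 fold change 0.98, SE 0.21, adjusted p = 0.013). Fkbp11 ran the other way, at 37.0, 20.2 and 18.8 in KO, against 121 and 88.1 in WT (4.14-fold lower, log2 fold change -2.08, SE 0.36, adjusted p = 0.00605). Fkbp10, a collagen chaperone named to complete the family, was at 374, 328 and 399 in KO, against 269 and 306 in WT, above WT in every KO library without a call (log2 fold change 0.35, adjusted p = 0.262). Among the called ER members the call was lost for Fkbp14, Dnajb12, Pdia4 and Canx without KO C1 (adjusted p between 0.055 and 0.133), for Fkbp14, Fkbp9, Dnajb12, Pdia4, Pdia5 and Canx without KO C2 (adjusted p between 0.0502 and 0.131), for Dnajb12 and Pdia4 without KO SE (adjusted p between 0.0617 and 0.0795), for Manf, Fkbp14, Fkbp9, Hspa5, Dnajb12, Pdia4, Pdia5 and Canx without WT C1 (adjusted p between 0.06 and 0.241) and for Fkbp14, Fkbp9, Dnajb12, Pdia4, Pdia5 and Canx without WT SE (adjusted p between 0.0696 and 0.253).

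**Figure D2:**
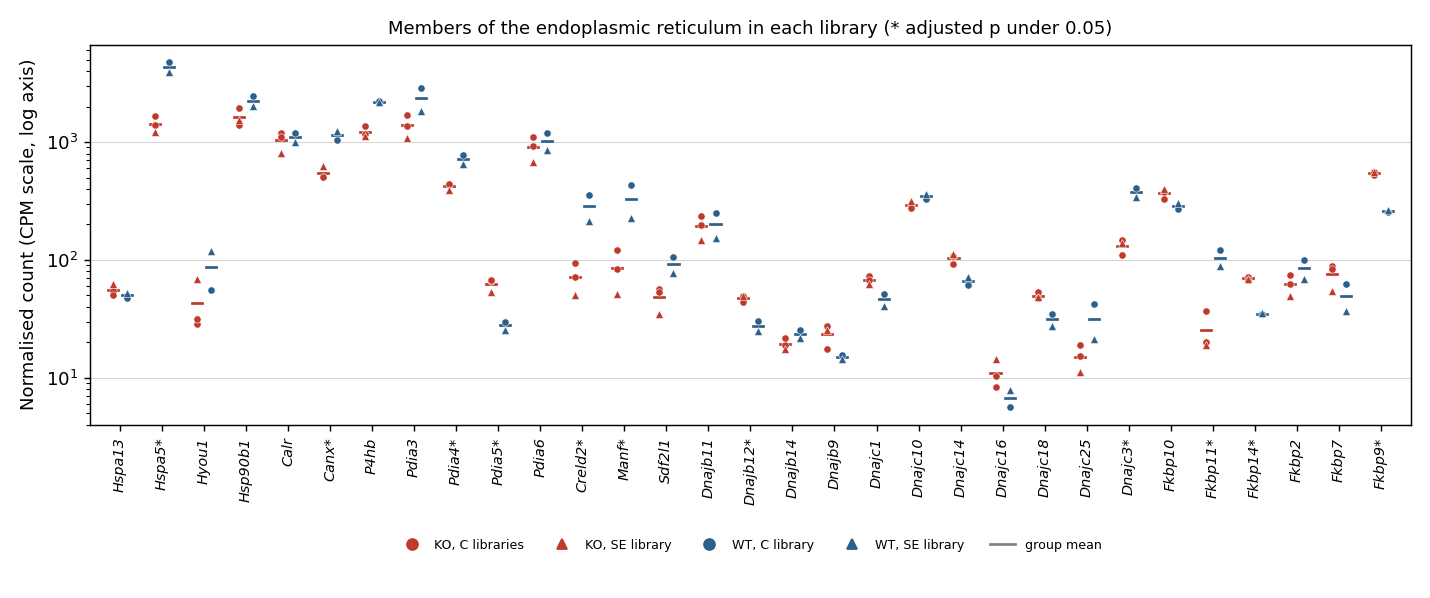
Normalised counts of the 31 ER members in each library on a log axis, KO left of WT for each gene, circles for C and triangles for SE libraries, bars at group means and asterisks at members past the threshold. Hspa5, Creld2, Manf, Dnajc3 and Fkbp11 show KO libraries clearly below WT, Pdia5, Fkbp9 and Fkbp14 the reverse, and Calr, Pdia6 and Dnajb11 overlap.

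Promoter windows from RefSeq (GRCm38.p6), from 250 bases before to 50 after a transcription start, were found for 85 of the 103 member symbols, and 18 had none. Many promoters carry a CCAAT box, which the factor NF-Y binds, and ER chaperone promoters are known for it. The letters CCAAT were searched on both strands. They stood in a window of 40 of the 85 members, or 47.1%, against 41.1% of 27025 genes, a share close to that of all genes. By call, they stood in 13 of 21 members lower in KO, 2 of 8 higher and 25 of 56 not called. The windows printed next, on the strand of each gene with CCAAT and its reverse complement in capitals, are those of Hspa5 and Creld2, which were lower, of the lectin pair Canx and Calr, of which Canx alone was called, and of Hspb1, the member with the largest rise. Hspa5, Creld2 and Hspb1 lie on the plus strand and Canx and Calr on the minus strand.

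Hspa5, chr2:34771840-34772139: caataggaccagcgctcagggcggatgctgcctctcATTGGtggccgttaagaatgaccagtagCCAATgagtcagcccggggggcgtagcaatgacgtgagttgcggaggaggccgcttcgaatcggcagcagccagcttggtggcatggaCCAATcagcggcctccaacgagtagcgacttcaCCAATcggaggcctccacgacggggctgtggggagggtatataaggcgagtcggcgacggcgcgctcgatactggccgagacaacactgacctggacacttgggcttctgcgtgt
Creld2, chr15:88819396-88819695: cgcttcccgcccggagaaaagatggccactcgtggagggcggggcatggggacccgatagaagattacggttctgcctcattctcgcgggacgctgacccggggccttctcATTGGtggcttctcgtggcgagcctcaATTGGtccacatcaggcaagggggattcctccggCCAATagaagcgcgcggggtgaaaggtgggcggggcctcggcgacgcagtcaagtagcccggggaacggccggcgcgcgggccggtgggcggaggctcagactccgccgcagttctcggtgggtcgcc
Canx, chr11:50325624-50325923: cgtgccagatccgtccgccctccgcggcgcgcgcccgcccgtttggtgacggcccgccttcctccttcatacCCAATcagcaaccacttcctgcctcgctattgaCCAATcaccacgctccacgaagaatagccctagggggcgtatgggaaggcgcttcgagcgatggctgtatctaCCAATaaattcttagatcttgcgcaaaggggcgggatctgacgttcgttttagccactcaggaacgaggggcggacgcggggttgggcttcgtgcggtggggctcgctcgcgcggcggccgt
Calr, chr8:84846882-84847181: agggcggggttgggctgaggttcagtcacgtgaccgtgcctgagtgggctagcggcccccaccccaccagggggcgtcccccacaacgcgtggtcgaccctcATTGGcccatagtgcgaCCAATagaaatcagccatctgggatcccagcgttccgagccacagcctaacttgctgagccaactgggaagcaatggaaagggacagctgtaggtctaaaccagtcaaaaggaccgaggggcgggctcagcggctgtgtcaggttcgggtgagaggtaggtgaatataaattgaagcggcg
Hspb1, chr5:135887669-135887968: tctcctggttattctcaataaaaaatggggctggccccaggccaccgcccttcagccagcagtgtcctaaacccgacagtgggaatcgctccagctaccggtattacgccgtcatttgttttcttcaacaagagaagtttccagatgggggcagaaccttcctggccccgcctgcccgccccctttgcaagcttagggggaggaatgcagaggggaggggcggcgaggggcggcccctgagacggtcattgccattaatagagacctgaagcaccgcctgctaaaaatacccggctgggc

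The Hspa5 window holds 4 matches, those of Creld2 and Canx 3 each, that of Calr 2 and that of Hspb1 0. Windows of members lower in KO held between 0 (Hspa4l) and 4 (Hspa5). Those of members higher held between 0 (Hspb1) and 2 (Fkbp14), and those of members not called between 0 (Bag3) and 6 (Hsp90b1). Any relation between the number of matches and the change was not tested. A match is a run of letters and not a measured binding site.

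In the cytosol, HSP70 proteins and their HSP110 relatives gave 1 higher and 5 lower of 10. The constitutive HSC70, Hspa8 (ENSMUSG00000015656, chromosome 9, 40800984 to 40810087, plus strand), was the most abundant of them at 529, 509 and 365 in KO, against 1337 and 1039.5 in WT (2.54-fold lower, log2 fold change -1.35, SE 0.28, adjusted p = 0.0122). All 3 members of the HSP110 group, which exchange nucleotide on HSP70, were lower. Hspa4l was at 18.8, 16.0 and 17.8 in KO, against 131 and 131 in WT (7.46-fold lower, log2 fold change -2.87, SE 0.22, adjusted p = 0.000301), Hspa4 at 256, 222 and 240.1 in KO, against 493 and 515 in WT (log2 fold change -1.08, adjusted p = 0.0094) and Hsph1 at 95.7, 76.2 and 103 in KO, against 189.9 and 220.3 in WT (log2 fold change -1.17, adjusted p = 0.0101). Hspa12b, a divergent HSP70 relative in the test through its WT libraries alone, had 6, 13 and 10 reads in KO, against 194 and 268 reads in WT (log2 fold change -3.48, SE 0.36, adjusted p = 0.000861). Hspa2, the HSP70 that mouse spermatogenesis requires, was the exception, at 43.3, 40.9 and 45.0 in KO, against 11.5 and 10.5 in WT (3.92-fold higher, log2 fold change 1.92, SE 0.24, adjusted p = 0.00173).

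The stress-inducible pair was not called. Hspa1a was at 11.4, 9.04 and 11.9 in KO, against 10.5 and 8.75 in WT, and Hspa1b at 27.6, 22.1 and 36.5 in KO, against 29.9 and 28.6 in WT, with overlapping groups in both (adjusted p = 0.731 and 0.906). These are near-identical copies between which counting can split reads, so each value is uncertain, as are those of members with close pseudogenes. The HSP90 pair was not called either. Hsp90aa1, the inducible form, was at 353, 273 and 248 in KO, against 344 and 270.3 in WT with overlap. Constitutive Hsp90ab1 was at 1243, 1219.7 and 924 in KO, against 2309 and 1824 in WT, KO below WT throughout (adjusted p = 0.0612, or 0.00168 with the suffix block, and 1 of the pair at an unadjusted p under 0.05). Such an unadjusted p was reached by 5649 of all 12484 tested genes. On the recovered reads, edgeR called 0 of the 3 HSP90 members and DESeq2 called 1, which was lower.

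Small HSPs hold unfolding proteins without ATP, and 2 of 5 were higher and 1 lower. Each of these passed the filter on low values only through the genotype where it was high, so the counts say little about the family. Hspb1, known as HSP25 in mice, had the largest rise of all members. It was at 23.1, 16.0 and 15.0 in KO, against 0.567 and 0.259 in WT, or 491, 424 and 209 reads in KO against 14 and 5 reads in WT (43.6-fold higher, log2 fold change 4.34, SE 0.34, adjusted p = 0.000306). Hspb7, a small HSP of heart and muscle, was at 2.02, 2.61 and 2.65 in KO, against 0.446 and 0.881 in WT (log2 fold change 1.35, SE 0.30, adjusted p = 0.0157). Hspb2, a muscle form, had 3, 2 and 5 reads in KO, against 96 and 71 reads in WT (log2 fold change -2.65, SE 0.29, adjusted p = 0.000964). Hspb8 and Hspb6, named to complete the family, overlapped between groups at 108, 109 and 77.1 in KO and 140.4 and 94.3 in WT for Hspb8 and 90.0, 66.5 and 61.7 in KO and 108 and 74.2 in WT for Hspb6. Of the 5 small HSPs, Hspb1 and Hspb7 were higher, as were the smooth muscle markers given above. Hspb2 was lower, and Hspb6 and Hspb8 overlapped between groups. Any link to those markers was not tested.

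Of the 16 cytosolic J proteins 0 were higher and 5 lower. Dnaja1, a general HSP70 partner, was at 73.9, 61.6 and 53.5 in KO, against 236 and 158 in WT (3.13-fold lower, log2 fold change -1.62, SE 0.27, adjusted p = 0.0052), and the related Dnaja2 at 247, 226 and 196 in KO, against 437 and 343 in WT (log2 fold change -0.80, adjusted p = 0.0388). Dnajc2, which acts on nascent chains at the ribosome, was at 43.4, 41.7 and 28.3 in KO, against 156 and 114 in WT (log2 fold change -1.83, SE 0.29, adjusted p = 0.0042), and Dnajc21, which acts in the maturation of the large ribosomal subunit, at 13.3, 15.5 and 16.3 in KO, against 52.6 and 57.2 in WT (log2 fold change -1.84, SE 0.25, adjusted p = 0.00233). Dnajc7, which binds both HSP70 and HSP90, was at 79.2, 75.6 and 52.8 in KO, against 167 and 121 in WT (log2 fold change -1.06, adjusted p = 0.0281). Heat-inducible Dnajb1 was at 92.5, 98.9 and 52.7 in KO, against 95.8 and 79.8 in WT, with overlapping groups, and Dnajb6, named after its values were seen, was at 35.8, 31.3 and 23.8 in KO, against 72.0 and 42.6 in WT without a call (log2 fold change -0.88, adjusted p = 0.0787). The remaining 9 had log2 fold changes between -1.05 (Dnajc9) and 0.68 (Dnajb2).

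Of the 6 cytosolic FKBPs 2 were lower and 0 higher, and both are cochaperones of HSP90 at steroid receptors. Fkbp5, or FKBP51, whose gene glucocorticoids raise, was at 11.3, 16.6 and 22.8 in KO, against 49.0 and 97.0 in WT (4.32-fold lower, log2 fold change -2.05, SE 0.42, adjusted p = 0.0112). Fkbp4, or FKBP52, was at 255, 246 and 165 in KO, against 492 and 453 in WT (2.13-fold lower, log2 fold change -1.11, SE 0.27, adjusted p = 0.0203). Of the 6 BAG proteins, which release clients from HSP70, 2 were lower and 0 higher. Bag1 was at 233, 213 and 122 in KO, against 529.9 and 333 in WT (log2 fold change -1.20, SE 0.36, adjusted p = 0.0436) and Bag2, which holds back the ubiquitin ligase CHIP, at 99.0, 80.4 and 80.5 in KO, against 174 and 145 in WT (log2 fold change -0.88, SE 0.22, adjusted p = 0.0245). Bag3, which with Hspb8 directs clients to autophagy, was at 113, 121 and 111 in KO, against 113 and 103 in WT with overlap, and Bag6, named for its change with the suffix, at 30.6, 35.8 and 146 in KO, against 39.2 and 109 in WT.

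Among called cytosolic members outside the CCT, the call was lost for Dnaja2 without KO C1 (adjusted p = 0.0761), for Bag1, Bag2, Fkbp4, Hspa4, Dnaja2 and Dnajc7 without KO C2 (adjusted p between 0.0532 and 0.121), for Dnaja2 without KO SE (adjusted p = 0.0656), for Bag1, Bag2, Fkbp4, Hspa4, Hspa8, Hsph1, Dnaja2, Dnajc7 and Hspb7 without WT C1 (adjusted p between 0.0525 and 0.237) and for Bag1, Bag2, Fkbp4, Fkbp5, Hspa4, Hsph1, Dnaja2, Dnajc7 and Hspb7 without WT SE (adjusted p between 0.0615 and 0.0907). Hspb1 and Hspb7 passed the filter on low values through their KO libraries alone. Hspa12b and Hspb2 passed it through WT alone, and dropped out without either WT library.

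**Figure D3:**
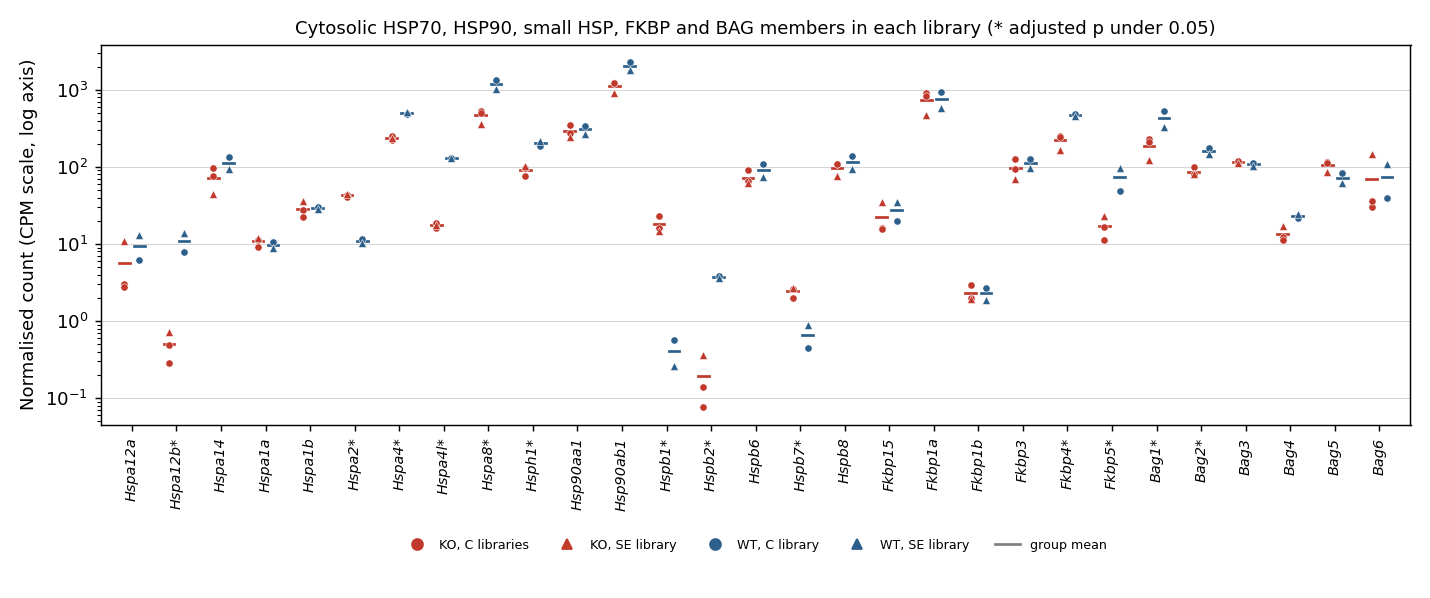
Normalised counts of the cytosolic HSP70, HSP90, small HSP, FKBP and BAG members in each library on a log axis, KO left of WT for each gene, circles for C and triangles for SE libraries, bars at group means and asterisks at members past the threshold. The lower KO values of Hspa8, Hspa4, Hspa4l and Hsph1 stand beside overlapping values of Hspa1a, Hspa1b and Hsp90aa1, and Hspb1 is higher in every KO library.

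The CCT chaperonin folds actin and tubulin, and its rings hold each of 8 different subunits in equal number. Of the 8 subunit genes 4 were lower and 0 higher, where 17.1% and 17.2% of all tested genes were. For 7 of the 8 every KO library lay below both WT libraries, as for 30.7% of all tested genes. Cct5 was at 666, 521 and 406 in KO, against 1466 and 1087 in WT (2.40-fold lower, log2 fold change -1.28, SE 0.31, adjusted p = 0.0203), Tcp1, the founding subunit, at 433, 343 and 306 in KO, against 879 and 689 in WT (log2 fold change -1.12, adjusted p = 0.0182), Cct6a at 564, 439 and 422 in KO, against 1059.8 and 829 in WT (log2 fold change -0.99, adjusted p = 0.0281) and Cct4 at 310.5, 283 and 234 in KO, against 569 and 474 in WT (log2 fold change -0.92, adjusted p = 0.0261). Cct7 and Cct3, named to complete the ring, were at 705, 567 and 464 in KO and 1189 and 908 in WT for Cct7 and 509, 419.8 and 328 in KO and 863 and 647 in WT for Cct3, and missed the threshold (adjusted p = 0.0586 and 0.0592). Cct2 was at 382, 308 and 277 in KO, against 514 and 413 in WT (adjusted p = 0.148). With the suffix block 7 of the 8 were lower, where 32.3% of all tested genes were. These 3 had an adjusted p of 0.00187 for Cct7, 0.00141 for Cct3 and 0.0103 for Cct2.

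Cct8 was the only subunit whose groups overlapped, and the only one with a positive log2 fold change, at 768, 583 and 447 in KO, against 545 and 396 in WT (log2 fold change 0.33, adjusted p = 0.45). With each chromosome centred on its own median its log2 fold change was -0.60. Its share of the summed CCT counts was 17.7%, 16.8% and 15.5% in KO and 7.69% and 7.28% in WT. Relative to the mean of the other 7 subunits it was at 1.51, 1.42 and 1.28 in KO and at 0.583 and 0.550 in WT, so the proportions of the subunit transcripts differed between the genotypes. Calls of the 4 subunits were lost for Cct4 without KO C1 (adjusted p = 0.0518), for Cct4, Cct5, Cct6a and Tcp1 without KO C2 (adjusted p between 0.0723 and 0.109), for Cct4, Cct5, Cct6a and Tcp1 without WT C1 (adjusted p between 0.125 and 0.173) and for Cct4, Cct5, Cct6a and Tcp1 without WT SE (adjusted p between 0.0552 and 0.0835).

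**Figure D4:**
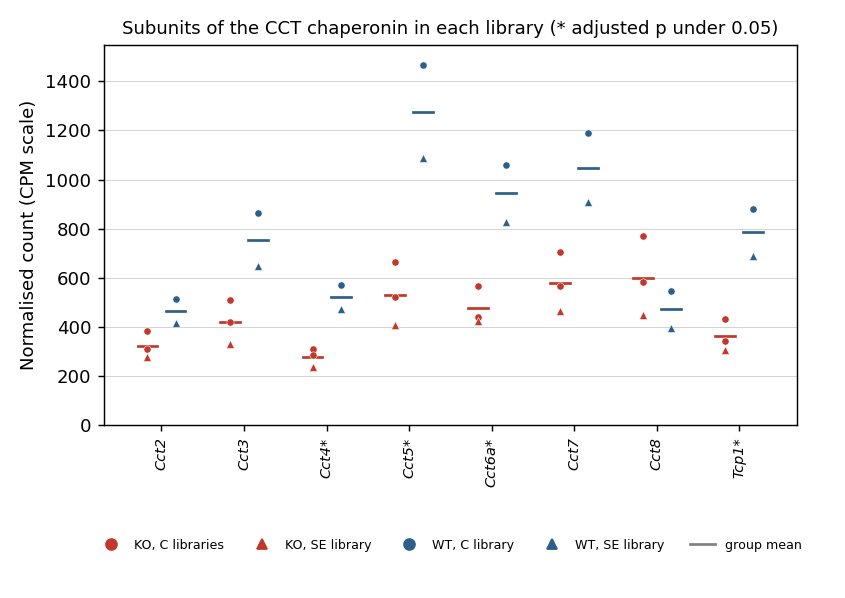
Normalised counts of the 8 CCT subunit genes in each library on a linear axis from 0, KO left of WT for each gene, circles for C and triangles for SE libraries, bars at group means and asterisks at members past the threshold. In 7 subunits all KO points lie below the WT points, and in Cct8 they overlap.

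Of the 9 mitochondrial members 1 was called. Hspa9, the mitochondrial HSP70 mortalin, was lower at 599, 563 and 587 in KO, against 1003 and 922 in WT (log2 fold change -0.72, SE 0.23, adjusted p = 0.0492), a call lost without KO C1 (adjusted p = 0.131), without KO C2 (adjusted p = 0.169), without KO SE (adjusted p = 0.0798), without WT C1 (adjusted p = 0.228) and without WT SE (adjusted p = 0.168). Hspd1 and Hspe1 encode the HSP60 chaperonin and its HSP10 lid, and lie head to head. For the Hspd1 start in RefSeq whose promoter window overlaps that of Hspe1 most, the starts are 216 bases apart and the windows share 285 bases. Another Hspd1 start has its window at chr1:55088194-55088493, against chr1:55087898-55088197 for Hspe1. Hspd1 was at 470.2, 424 and 321 in KO, against 751 and 545 in WT, KO below WT without a call (log2 fold change -0.68, adjusted p = 0.108), and Hspe1 at 148, 124 and 80.2 in KO, against 149 and 90.2 in WT with overlap (log2 fold change -0.03, adjusted p = 0.961). Dnajc11, a J protein of the inner membrane organising complex, was at 46.6, 48.8 and 40.6 in KO, against 78.8 and 60.9 in WT (log2 fold change -0.61, adjusted p = 0.091), below WT in every KO library. The unadjusted limma p was under 0.05 for 3 of the 9, all lower. Among all 12484 tested genes it was so for 5649, of which 2892 were lower. For the 9, edgeR called 0 and DESeq2 called 1, lower.

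The 7 members outside these compartments were low. Dnajc28, a J protein gene, was at 3.62, 5.98 and 6.74 in KO, against 1.62 and 1.71 in WT and higher in KO (log2 fold change 1.42, SE 0.35, adjusted p = 0.0216), a call lost without KO C2 (adjusted p = 0.0654), without WT C1 (adjusted p = 0.123) and without WT SE (adjusted p = 0.114). Dnajc27 was at 9.03, 8.17 and 13.4 in KO, against 3.61 and 6.47 in WT, above WT in every KO library without a call (adjusted p = 0.0939). Hspb11, at 20.2, 16.8 and 13.1 in KO and 14.1 and 7.56 in WT, and Dnajc13, the most abundant of the 7 at 25.9, 27.4 and 60.7 in KO and 28.1 and 37.6 in WT, overlapped.

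Per kilobase of exon, which allows genes to be compared within a library, the order of the members differed between genotypes. The level of Hspa5 was 337 ± 55.3 in KO and 1035 ± 139 in WT, where it was first, and it was sixth in KO. Pdia3 was at 441 ± 101 in KO and 748 ± 236 in WT, P4hb at 429 ± 46.8 in KO and 769 ± 6.65 in WT, Hsp90b1 at 403 ± 71.0 in KO and 557 ± 71.9 in WT, Hsp90ab1 at 376 ± 59.2 in KO and 689 ± 114 in WT and Calr at 361 ± 70.9 in KO and 381 ± 49.0 in WT. In KO each neighbouring pair in this order differed by less than its SD, so the order there is not settled by these libraries. In WT Hspa5 stood above P4hb by more than its SD.

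Log2 fold changes ran along chromosomes in these libraries. The median over tested genes was between -0.58 (chromosome 4) and 0.82 (chromosome 16) on the autosomes. On the sex chromosomes, which hold no member, it was 0.25 over 407 tested genes of X and -4.22 over 5 of Y. Their part in the results was not tested. Chromosome 16 holds 8 members, among them Cct8, Pdia5, Dnajc28, Sdf2l1, Hspa13 and Dnajb11. The median change of the tested genes within 25 places on each side was 0.76 around Cct8, 0.91 around Pdia5, whose own change was 1.15, and 0.82 around Sdf2l1, whose own change was -0.93. Around Dnajc28, whose own change was 1.42, it was 0.87. For 5 of the 35 called members the surroundings' median was over 50% of the member's change in the same direction, and for 8 it had the opposite sign.

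Centring each chromosome on its own median, which moves the median of all genes by 0.11, ended the calls of Pdia5 (0.521), Dnajc28 (0.391), Dnajb12 (0.48), Bag1 (0.188), Canx (0.0669), Cct4 (0.108), Cct6a (0.121), Tcp1 (0.0621) and Dnajc7 (0.0921), adjusted p in parentheses. It added lower calls of Sdf2l1 (0.00281), Cct2 (0.0265), Cct7 (0.032), Dnajb11 (0.0384), Hspd1 (0.0418) and Dnajc9 (0.0463) and a higher call of Hspb11 (0.049). This left 6 members higher and 27 lower. The surroundings of Hspa5 were at 0.06, of Manf at -0.17 and of Creld2 at -0.33, far smaller than the changes of these genes. Whether the chromosome-wide shifts take part in the members' changes was not tested beyond this centring.

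**Figure D5:**
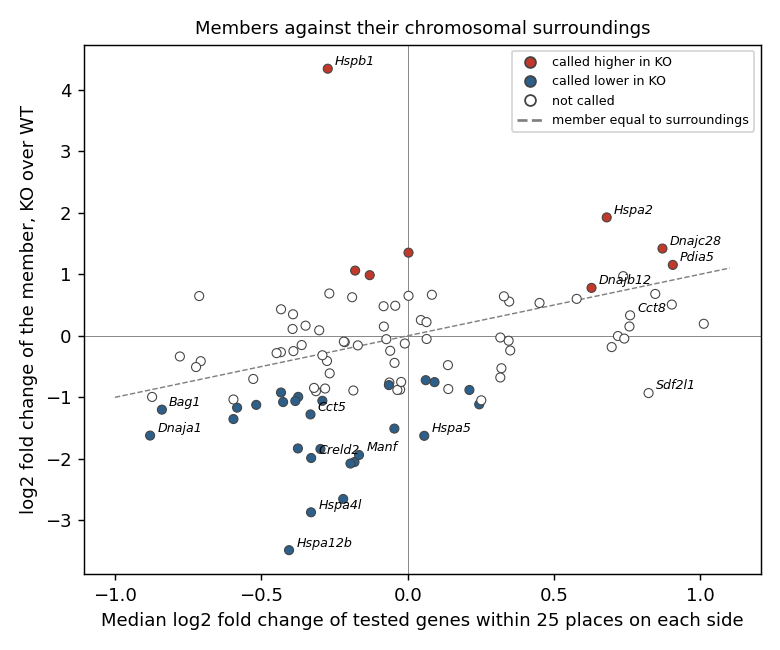
Log2 fold change of each of the 101 members, KO over WT, against the median log2 fold change of the tested genes within 25 places on each side along the chromosome, with filled points for members past the threshold and a dashed line where both are equal. Pdia5 and Dnajb12 lie near the line, while Hspa5, Creld2, Manf, Hspa4l and Hspb1 lie far from it.

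The members also moved with the suffix of the library. The SE library was set against the mean of the KO C libraries in KO and against C1 in WT. It was below in both genotypes for 65 of the 101 members, and above in both for 25. The matching counts over all tested genes were not taken. The median ratio of SE over C was 0.803 in KO and 0.804 in WT over the members, against 0.981 in KO and 0.935 in WT over all tested genes. With 1 SE library per genotype this is a description. Against the trend, Bag6 had a ratio of 4.39 in KO and 2.79 in WT, and Hyou1 of 2.28 in KO and 2.14 in WT. Manf had 0.501 in KO and 0.528 in WT, and Creld2 0.608 in KO and 0.604 in WT. With the suffix as a block, 19 members were higher and 47 lower, where 28.3% and 32.3% of all tested genes were. No member lost its call and 31 gained one, 11 higher and 20 lower. In the cytosol that made 5 higher and 31 lower, in the ER 10 and 13, and in mitochondria 2 and 3. Gained calls included, lower, Sdf2l1 (0.000731), Hyou1 (0.00178), P4hb (0.00374), Pdia3 (0.0056), Hspd1 (0.00207), Dnajc11 (0.00456), Dnajb6 (0.00178) and Hspa14 (0.00477), adjusted p in parentheses. Those gained higher included Fkbp10 (0.0319), Dnajc27 (0.00535) and Dnajb2 (0.00281). In the test of whether the genotype difference changed with the suffix, limma called 0 members, and 1 (Hspg2) had an unadjusted p under 0.05, against 2.62% of all genes, and edgeR and DESeq2 called 0 members. That fit has 1 residual degree of freedom and is weak.

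Other genes of folding pathways were taken as lists and are described by counts alone. Beside these counts, 17.2% of all tested genes were higher and 17.1% lower in the limma fit. There, 5649 of all 12484 tested genes had an unadjusted p under 0.05. With the suffix block the shares were 28.3% and 32.3%. Of 16 heat shock regulators and cochaperones 1 was higher and 2 lower, with a median of -0.37. With the suffix block 3 were higher and 9 lower. The HSP90 partner Ppid was at 54.3, 41.1 and 40.0 in KO, against 294 and 175 in WT (log2 fold change -2.33, adjusted p = 0.00192), the HSP90 partner Chordc1 at 97.6, 72.4 and 78.5 in KO, against 172 and 122 in WT (log2 fold change -0.82, adjusted p = 0.0492), and the myosin chaperone Unc45a at 115, 146 and 137 in KO, against 48.7 and 77.4 in WT (log2 fold change 1.09, adjusted p = 0.023). The heat shock factor Hsf1, named after its values were seen, was at 59.2, 53.7 and 66.9 in KO, against 80.3 and 95.3 in WT without a call (log2 fold change -0.55, adjusted p = 0.105). Of 6 prefoldin subunits, which hand clients to CCT, 0 were called by limma, edgeR or DESeq2, with 1 at an unadjusted p under 0.05. With the suffix block 2 were lower (Pfdn6 and Vbp1). The lowest p was that of Pfdn6, at 46.7, 40.1 and 20.3 in KO and 97.6 and 56.2 in WT, ahead of Vbp1 at 127, 79.9 and 81.0 in KO and 198 and 123 in WT and Pfdn4 at 31.8, 19.4 and 16.3 in KO and 47.7 and 21.2 in WT.

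Of 12 sensors, factors and targets of the unfolded protein response 0 were called by limma, edgeR or DESeq2, with 2 at an unadjusted p under 0.05, both lower, and a median of -0.43. Among all 12484 tested genes 5649 had an unadjusted p under 0.05, of which 2892 were lower. With the suffix block 5 of the 12 were lower and 0 higher, where 32.3% and 28.3% of all tested genes were. The 5 were Atf4 (0.0059), Asns (0.0143), Chac1 (0.0148), Ern1 (0.0179) and Atf6b (0.0489), adjusted p in parentheses. The factor Atf4 was at 275, 192 and 175 in KO, against 405 and 312 in WT (log2 fold change -0.76, adjusted p = 0.079) and its target Asns at 209, 141 and 154 in KO, against 279.6 and 249 in WT (log2 fold change -0.67, adjusted p = 0.081). The sensor gene Ern1 was at 1.46, 2.19 and 7.24 in KO, against 7.13 and 11.2 in WT, with overlap. Xbp1, named after its values were seen, was at 333, 411 and 251 in KO, against 408 and 348 in WT, with overlap. Of 11 tested genes of ER-associated degradation 1 was higher and 2 lower, or 2 and 4 with the suffix block. The lectin Os9 was at 324, 387 and 272 in KO, against 167 and 131 in WT (log2 fold change 1.13, adjusted p = 0.0155), the mannosidase-like Edem1 at 60.7, 75.2 and 101 in KO, against 174 and 237 in WT (log2 fold change -1.39, adjusted p = 0.0127) and Herpud1, a gene raised by ER stress, at 86.6, 97.3 and 82.5 in KO, against 203 and 153 in WT (log2 fold change -0.99, adjusted p = 0.0172).

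Of 6 tested genes of disulfide formation and glycoprotein folding 1 was higher and 1 lower, or 1 and 2 with the suffix block. The folding sensor gene Uggt2 was at 44.6, 32.5 and 85.6 in KO, against 9.93 and 17.6 in WT (log2 fold change 1.88, adjusted p = 0.0231), the oxidase gene Ero1lb at 4.09, 3.44 and 3.73 in KO, against 11.3 and 8.96 in WT (log2 fold change -1.32, adjusted p = 0.0151), and Ero1l at 84.3, 77.0 and 90.6 in KO and 117 and 114 in WT (adjusted p = 0.131). Of 10 collagen folding genes 3 were higher and 1 lower, or 5 and 2 with the suffix block. The prolyl hydroxylase subunit P4ha3 was at 69.3, 34.5 and 54.2 in KO, against 1.86 and 2.33 in WT (log2 fold change 4.30, adjusted p = 0.000393) and P4ha2 at 203, 185 and 137 in KO, against 56.0 and 52.8 in WT (log2 fold change 1.65, adjusted p = 0.00344), whereas the lysyl hydroxylase Plod2 was at 32.0, 27.9 and 32.4 in KO, against 129 and 141 in WT (log2 fold change -2.12, adjusted p = 0.000782). The third gene called higher was Crtap (adjusted p = 0.0491). Of 8 genes of mitochondrial protein quality 1 was higher and 1 lower, or 1 and 4 with the suffix block. The mitochondrial HSP90 Trap1 was at 265, 277 and 202 in KO, against 127 and 109.9 in WT (log2 fold change 1.05, adjusted p = 0.0158), Grpel2, which exchanges nucleotide on mitochondrial HSP70, at 27.7, 22.5 and 16.3 in KO, against 61.3 and 52.3 in WT (log2 fold change -1.37, adjusted p = 0.0146), and the protease Lonp1 at 68.7, 85.3 and 100.5 in KO and 126 and 159 in WT (adjusted p = 0.0597).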

How the data were processed

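Libraries of polyadenylated RNA from a strand-marking kit were read from a single end over 75 bp, per the labels' protocols. The submitters' processing notes name STAR 2.5, featureCounts 1.5.2 and edgeR, with no role for any of them. The build, the annotation and the use of strand in counting are not given in the sources used here, so overlapping and antisense genes are uncertain. The deposited values are a signal: gene counts divided by a scaled library size on the CPM scale. Division by the value of 1 read gave whole numbers, to within 0.02, for 100% of values, and the implied library sizes matched TMM-scaled ones. Columns name the genotype and a suffix, not the sample titles' numbers.

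Tests used limma 3.58.1 (lmFit, eBayes with trend) in R 4.3.3 on log2 of the value plus 0.5, which understates changes of low genes. Genes had to reach 1 in 2 or more libraries, the Benjamini-Hochberg adjustment covered all 12484 of them, and 3 residual degrees of freedom remained. Folds are ratios of group means of deposited values. On recovered reads, edgeR 4.0.16 (quasi-likelihood) called 2040 genes higher and 2039 lower, and DESeq2 1.42.0 called 2600 and 2236. Replicates differed beyond counting noise (chi-square per degree of freedom 62.3 to 220). Coordinates and exon lengths were looked up in GENCODE M21 by Ensembl identifier, and promoter windows come from RefSeq. Named were a basic set of chaperones, every called member, the most abundant member and the 3 with the smallest p in each compartment, and up to 3 genes with the smallest p in each list. Members and lists were chosen with earlier results of these data known. The scripts were tested on simulated data.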

Additional observations from a re-analysis of the deposited data

How the results depend on the processing

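Over 19 alternatives, 66 named members and 24 other named genes gave 1701 refitted values, of which 1465 kept direction and side of the threshold, 132 lost the call, 66 gained it and 38 changed sign. Hspa2, Hspa4l, Dnaja1, Dnajc2, Dnajc21, Creld2, Fkbp11 and Dnajc3 were called in all 19, as was Hspb1, which is in the test through its KO libraries alone. Hspa12b and Hspb2, in the test through their WT libraries alone, were tested in 16 and 15, which says nothing of stability. With the suffix as a block, 3530 genes were higher and 4038 lower, and 19 members were higher and 47 lower. Without 1 library each, between 1049 and 2332 genes were higher and between 594 and 2632 lower, and between 2 and 8 members were higher and between 8 and 27 lower, fewest without WT C1 or WT SE. The other alternatives kept counts within 1.5 times. Genes that changed sign were uncalled in both fits. With the suffix block, the log2 fold change was 0.040 for Bag6. With chromosomes centred, the log2 fold change was 0.018 for Bag6, -0.60 for Cct8, -0.78 for Hspa13, 0.23 for Hspa1b, 0.080 for Hspb8 and 0.091 for Xbp1. With quantile normalization, the log2 fold change was 0.020 for Dnajb11, 0.049 for Hspa1b and 0.086 for Hspe1. With median-of-ratios scaling, the log2 fold change was 0.014 for Dnajb11, 0.0031 for Hspa1b and 0.031 for Hspe1. With DESeq2, the log2 fold change was 0.0014 for Dnajb11, 0.026 for Hspa1b and 0.041 for Hspe1. Without both SE libraries, the log2 fold change was -0.074 for Dnajc13 and -0.049 for Hspa1a. Ranges without 1 library each were -0.9999 to 0.47 for Bag6, -0.23 to 0.077 for Calr, -0.32 to 0.13 for Dnajb1, -0.41 to 0.32 for Dnajb11, -0.28 to 0.33 for Dnajc13, -0.25 to 0.092 for Hsp90aa1, -0.24 to 0.12 for Hspa1b, -0.54 to 0.037 for Hspb8, -0.39 to 0.33 for Hspe1, -0.25 to 0.96 for Hspg2, -0.42 to 0.053 for Pdia6 and -1.12 to 0.026 for Pfdn4. The cause of these shifts was not tested. No paired analysis was possible because the columns carry no replicate number of the titles. The suffix block is a split by column suffix, whose meaning is not given, and not such a pairing. With 3 KO and 2 WT libraries, leaving out a WT library rests the WT spread on the others. Reads of 20 or fewer limit Hspb1 and Hspb7 in WT and Hspb2 and Hspa12b in KO.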

Other observations

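The 3 entries set apart showed no call. Hspg2, which encodes the basement membrane proteoglycan perlecan, was at 9.83, 10.4 and 49.7 in KO, against 8.67 and 16.9 in WT (log2 fold change 0.50, adjusted p = 0.641), with SE over C ratios of 4.92 in KO and 1.95 in WT. The second entry named Hspa14, an identifier that GENCODE M21 gives to an overlapping predicted gene, averaged 3.19 ± 1.09 in KO and 4.86 ± 1.26 in WT, and Hspa14 itself was at 95.7, 75.6 and 44.4 in KO, against 134 and 93.2 in WT. The processed pseudogene Hspd1-ps3 was at 1.13, 1.13 and 1.36 in KO, against 2.19 and 1.66 in WT (adjusted p = 0.2), which reads of Hspd1 could enter.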
